A study of Mus musculus with 14 samples.

Results

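Egr1, Egr2, Egr3, Nr4a1, Nr4a2, Nr4a3, Ier2, Ier3, Klf4 and Dusp1 are 10 early response genes of the mouse, described here across 14 RNA sequencing libraries of the left ventricle. They were taken by symbol from a table of read counts with 24054 genes, and each symbol was found once. The mice behind the 5 HFpEF-FoxO1-sh and the 4 HFpEF-scr libraries were fed fat-rich chow for 6 weeks and given L-NAME, which inhibits nitric oxide synthases, a combination used to model heart failure with preserved ejection fraction (HFpEF). Both of these groups also received an adeno-associated virus (AAV) for 4 weeks, carrying a short hairpin RNA against Foxo1 in HFpEF-FoxO1-sh and a scrambled one in HFpEF-scr. For the 5 Control libraries the labels give 10 weeks of control diet and name no AAV. All 3 groups carry the strain label C56Bl6. The labels name neither the serotype nor the promoter of the virus, and they leave unsaid whether replicates are separate animals, so that a p here reflects library-to-library spread, which may be technical. Diet, L-NAME and virus differ together between HFpEF-scr and Control and cannot be told apart.

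Early response genes are transcribed within minutes of a stimulus. The factors that switch them on are already in the cell and need only be activated, often by phosphorylation. Serum response factor (SRF) with its ETS partners acts at CArG boxes, and CREB acts at cyclic AMP response elements (CRE). Their messages are short-lived. In the heart, stretch, adrenergic drive and ischaemia are known inducers, and the endothelium answers shear stress with some of the same genes. Egr1, Egr2 and Egr3 encode zinc-finger factors that bind GC-rich sites. Nr4a1, Nr4a2 and Nr4a3 encode orphan nuclear receptors, Klf4 a zinc-finger factor known for quiescence of endothelium and smooth muscle, Ier2 a small nuclear protein, Ier3 a regulator of survival signalling, and Dusp1 a phosphatase that switches off MAP kinases.

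RefSeq promoter windows on GRCm38.p6 were matched for 7 of the 10 genes, and Egr1, Egr3 and Ier2 had no entry. Windows are shown for 6 genes, because they let a reader set the letters of the 3 genes that passed a test (Nr4a3, Klf4 and Ier3) beside those of 3 genes that moved together from library to library (Egr2, Nr4a1 and Dusp1). Klf4 moved with the latter 3 as well, so these sets are not opposites. Each line reads 5′ to 3′ on the gene's own strand and lies within the 250 bases before the transcription start, cut short before the first annotated exon base. Capitals mark matches, on either strand, to the CRE core TGACG, the CArG box and the EGR site GCGGGGGCG or GCGTGGGCG.
Egr2, chr10:67537619-67537868, plus strand: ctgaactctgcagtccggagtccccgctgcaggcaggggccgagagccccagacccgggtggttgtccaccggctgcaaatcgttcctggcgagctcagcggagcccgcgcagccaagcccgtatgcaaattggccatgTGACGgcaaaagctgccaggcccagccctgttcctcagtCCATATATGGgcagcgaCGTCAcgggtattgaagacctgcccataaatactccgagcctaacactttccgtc
Nr4a1, chr15:101266596-101266845, plus strand: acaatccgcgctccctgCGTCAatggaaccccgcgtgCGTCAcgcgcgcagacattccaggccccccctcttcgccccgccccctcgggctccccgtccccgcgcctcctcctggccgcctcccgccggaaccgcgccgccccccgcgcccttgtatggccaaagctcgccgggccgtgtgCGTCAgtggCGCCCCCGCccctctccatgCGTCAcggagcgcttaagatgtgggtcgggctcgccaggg
Nr4a3, chr4:48045055-48045152, plus strand: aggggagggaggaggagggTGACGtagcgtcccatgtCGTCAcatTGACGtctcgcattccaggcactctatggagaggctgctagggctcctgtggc
Klf4, chr4:55532476-55532725, minus strand: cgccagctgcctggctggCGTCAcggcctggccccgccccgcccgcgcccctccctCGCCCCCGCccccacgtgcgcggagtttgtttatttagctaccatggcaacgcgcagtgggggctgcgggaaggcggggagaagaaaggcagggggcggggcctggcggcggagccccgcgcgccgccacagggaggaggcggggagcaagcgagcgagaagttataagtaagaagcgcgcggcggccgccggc
Ier3, chr17:35821463-35821683, plus strand: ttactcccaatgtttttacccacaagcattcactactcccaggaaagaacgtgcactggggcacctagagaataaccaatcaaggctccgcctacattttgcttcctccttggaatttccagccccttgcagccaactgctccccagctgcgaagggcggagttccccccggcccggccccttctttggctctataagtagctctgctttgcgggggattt
Dusp1, chr17:26508520-26508722, minus strand: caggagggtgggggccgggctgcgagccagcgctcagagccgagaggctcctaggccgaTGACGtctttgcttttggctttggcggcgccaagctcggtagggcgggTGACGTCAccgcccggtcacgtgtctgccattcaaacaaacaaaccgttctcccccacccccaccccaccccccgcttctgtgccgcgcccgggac

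The CRE core stood in the 250 upstream bases of 6 of the 7 genes, all but Ier3, and in 17.8% of 32851 RefSeq windows from 27025 genes. Nr4a1, Nr4a2 and Nr4a3 each had 4 CRE cores in that span, and the line of Nr4a3 ends before the last of its own. Dusp1 held the full palindrome TGACGTCA, seen in 1.55% of windows, and 2 of its 3 CRE cores are the overlapping parts of that palindrome, 1 on each strand. Egr2 was the only one of the 7 with a CArG box, which 1.47% of windows held. An EGR site stood before Klf4 and Nr4a1, against 3.06% of windows, and the NR4A response element AAAGGTCA, in 1.34% of windows, stood before none of the 7. TATAAA was found before Nr4a2 alone, against 12.4% of windows. A gene was counted if any of its windows held the motif, whereas the percentages are shares of single windows. Egr2 has 5 windows, and 1 of them, the most upstream, held none of these motifs. The next window of Egr2 held the CArG box but no CRE core. These matches describe the letters only, and binding was not measured.

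**Figure D1:**
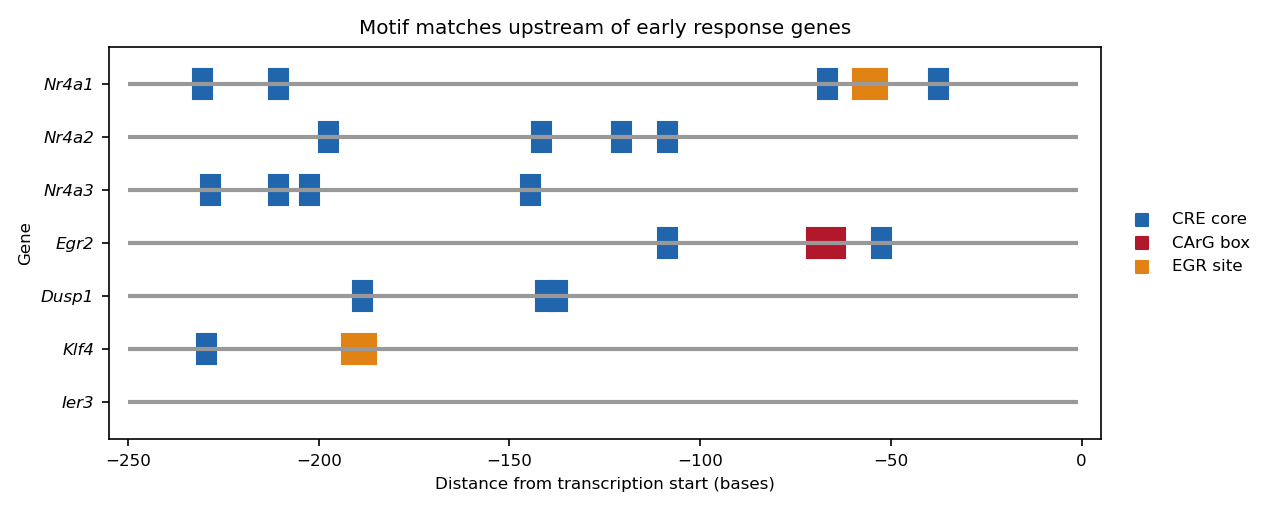
Positions of motif matches in the 250 bases before the transcription start of the 7 genes with a RefSeq window, in bases from the start, each grey line being 1 gene. Nr4a1, Nr4a2 and Nr4a3 carry 4 CRE cores each, Egr2 carries the CArG box, and the line of Ier3 is empty.

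The sum of expected counts lay between 13174118 and 15384384 in 13 libraries and was 21247155 in Control 1. Levels are given in CPM, the counts of a gene per 1e+06 counts of its library after scaling between libraries, and all 10 genes were among the 13588 that passed the filter on low counts. Foxo1, the gene the hairpin was directed at, averaged 42.4 ± 2.56 CPM in the libraries labelled HFpEF-FoxO1-sh, 43.5 ± 3.74 CPM in HFpEF-scr and 44.0 ± 1.93 CPM in Control (SD, n = 5, 4 and 5). Against HFpEF-scr that is -0.04 ± 0.06 on the log2 scale (SE, edgeR quasi-likelihood test, adjusted p = 0.78), so its message level does not set the libraries labelled HFpEF-FoxO1-sh apart. The 6 cardiomyocyte markers summed to between 79156 and 88859 CPM in HFpEF-FoxO1-sh, between 74669 and 84499 CPM in HFpEF-scr and between 84934 and 91854 CPM in Control, and none was at 0. In bulk tissue, fewer cells of a type and less RNA per cell cannot be told apart.

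Ier3 was higher in both HFpEF groups than in Control, by 1.48-fold in HFpEF-scr and 1.60-fold in HFpEF-FoxO1-sh. Nr4a3 and Klf4 rose in HFpEF-scr against Control, by 3.36-fold and 1.96-fold, and Nr4a3 was 5.19-fold lower in HFpEF-FoxO1-sh than in HFpEF-scr. The 3 Egr genes, Nr4a1, Nr4a2, Ier2 and Dusp1 passed no test, and their libraries overlapped between groups in every comparison.

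Of the 10 genes 3 rose and none fell in HFpEF-scr against Control, where 3.66% of all 13588 genes tested rose, 3.70% fell and 7.37% changed in either direction. An unadjusted p under 0.05 was reached by 4 of the 10, against 23.6% of all genes. All 10 log2 fold changes were above 0, against 50.4% of all genes, with a median of 0.68 against 0.00 over all genes. In HFpEF-FoxO1-sh against HFpEF-scr, 1 fell and none rose, where 2.26% of all genes fell, 1.32% rose and 3.58% changed, and 3 of the 10 had an unadjusted p under 0.05, against 19.7% of all genes. Of the 10 log2 fold changes 1 was above 0, against 51.3% of all genes, with a median of -0.78 against 0.00. In HFpEF-FoxO1-sh against Control, 1 rose and none fell, where 6.68% of all genes rose, 6.28% fell and 13.0% changed. There 1 of the 10 had an unadjusted p under 0.05, against 27.0% of all genes, and 4 were above 0, against 49.2% of all genes, with a median of -0.13. Libraries of the compared groups did not overlap for 1, 2 and 1 of the 10 genes in these comparisons, against 8.93%, 8.34% and 12.1% of all genes. The 10 genes share the libraries and many moved together, so the signs are not 10 independent observations.

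Left-out libraries moved these counts. The count of 3 in HFpEF-scr against Control was 1 without Control 3 and 1 without HFpEF-scr 2, Ier3 being the gene still called, and the median ran between 0.47 without Control 2 and 1.26 without Control 5. Without Control 3 the calls among all genes dropped as well, from 1001 to 537, the lowest of these fits. The count of 1 in HFpEF-FoxO1-sh against HFpEF-scr was 0 without HFpEF-FoxO1-sh 1 and 2 without HFpEF-FoxO1-sh 5, and the median ran between -1.02 without HFpEF-FoxO1-sh 2 and -0.52 without HFpEF-scr 2. Without HFpEF-FoxO1-sh 1 the calls among all genes also dropped, from 486 to 162, again the lowest of the fits. The median of HFpEF-FoxO1-sh against Control ran between -0.42 without HFpEF-FoxO1-sh 2 and 0.44 without Control 5.

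**Figure D2:**
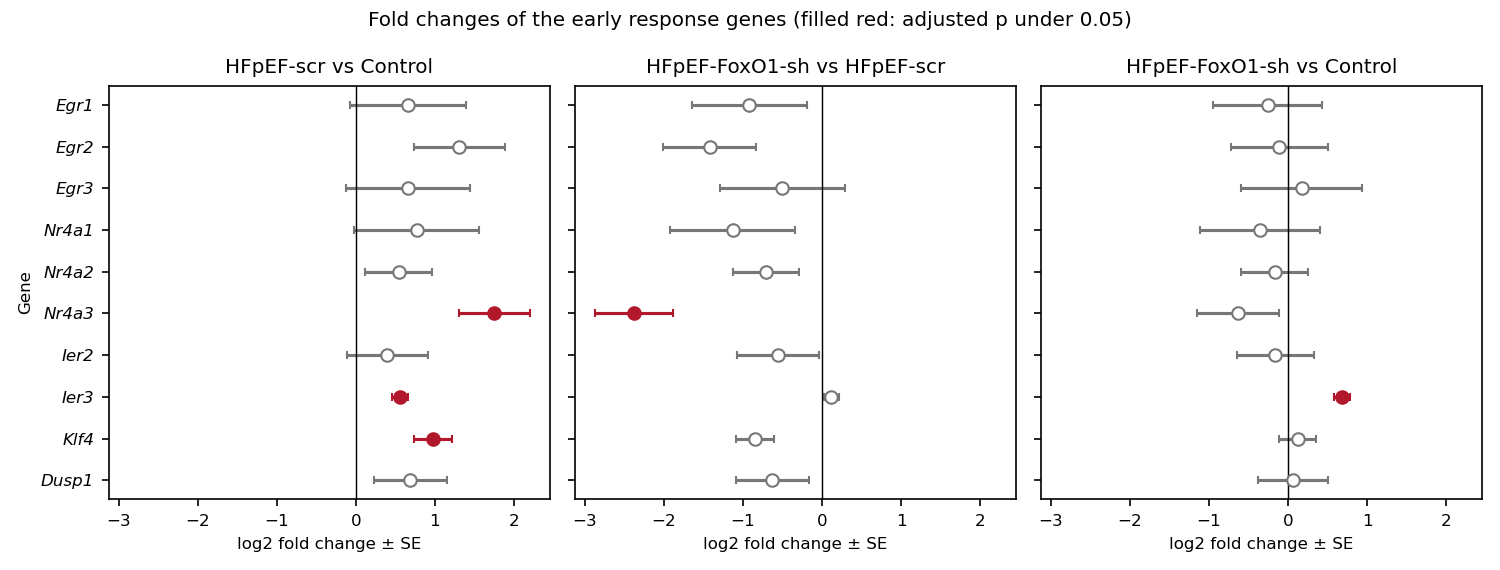
log2 fold change ± SE of each gene in the 3 comparisons, with filled red points for an adjusted p under 0.05. Nr4a3, Ier3 and Klf4 are filled for HFpEF-scr against Control, Nr4a3 for HFpEF-FoxO1-sh against HFpEF-scr, and Ier3 for HFpEF-FoxO1-sh against Control.

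Levels between genes were compared per kilobase of annotated exon. Per kilobase of annotated exon, Egr1 was the highest, at 64.6 ± 40.2 CPM in HFpEF-FoxO1-sh, 122 ± 88.7 CPM in HFpEF-scr and 77.4 ± 72.5 CPM in Control (mean ± SD). Dusp1 came next with 59.5 ± 28.2, 92.0 ± 39.9 and 57.0 ± 38.8 CPM per kilobase in the same order of groups. The SDs of Egr1 and Dusp1 overlapped in every group. Ier2, Nr4a1, Klf4 and Ier3 formed a middle tier, with group means between 18.2 and 44.5 CPM per kilobase, and within it the order changed with the group. Egr2, Egr3, Nr4a2 and Nr4a3 stood lowest, with group means between 0.232 and 2.68 CPM per kilobase. Nr4a3 was the lowest of the 10 in HFpEF-FoxO1-sh and in Control, and in HFpEF-scr its mean of 1.21 ± 0.811 CPM per kilobase was near that of Nr4a2, at 1.09 ± 0.474.

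**Figure D3:**
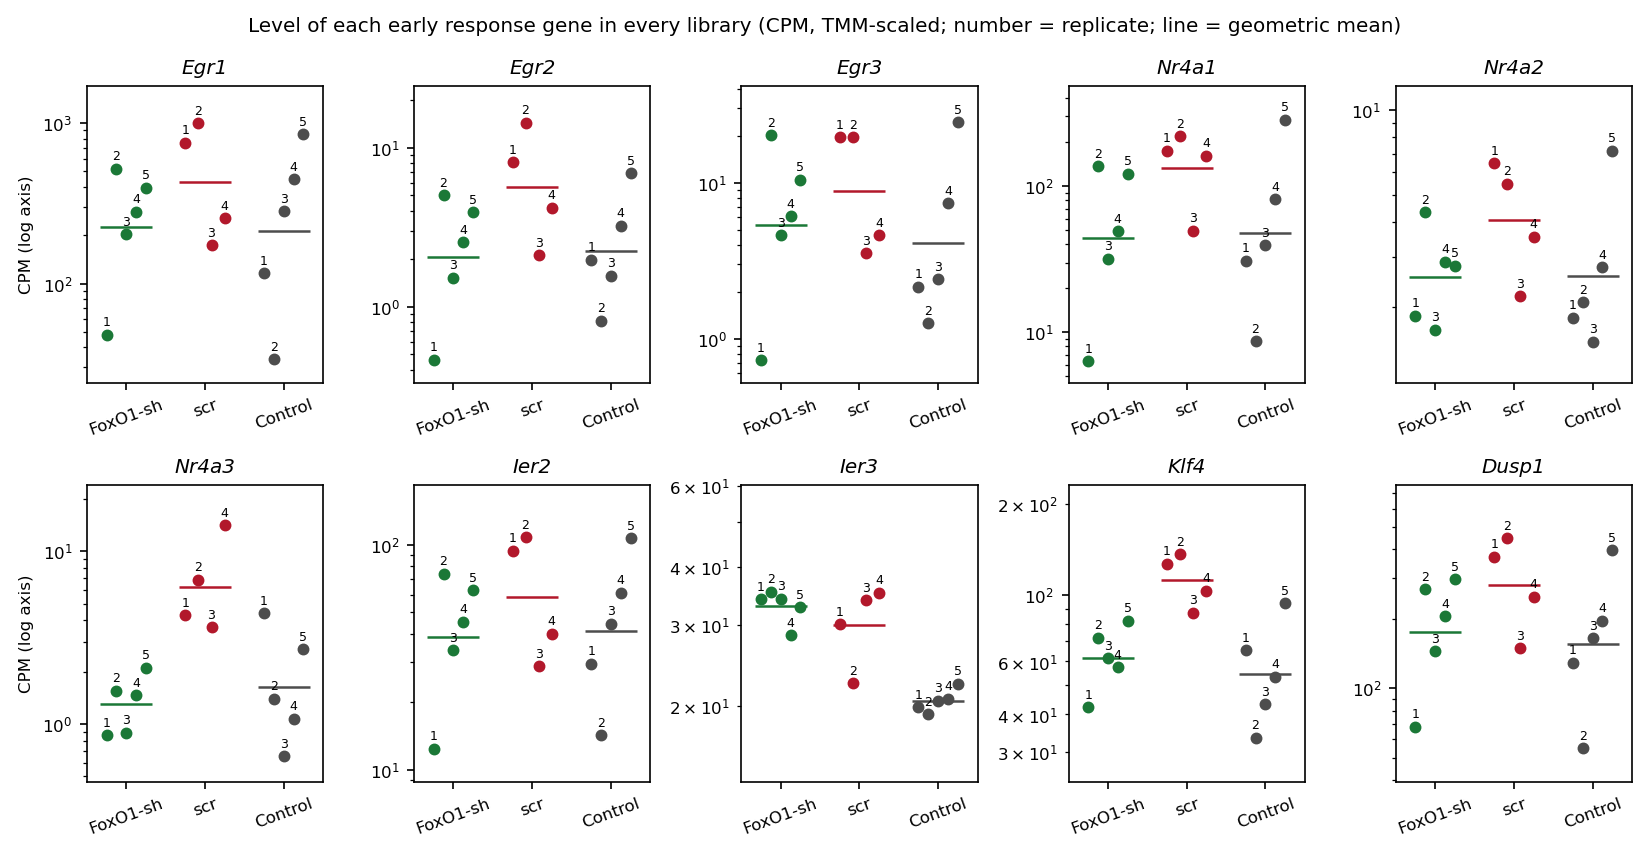
Level of each gene in every library, in CPM on a log axis, with HFpEF-FoxO1-sh, HFpEF-scr and Control from left to right, digits for the replicate and lines for the geometric mean. Ier3 shows 5 Control points below all HFpEF points, whereas Egr1 to Nr4a2 show groups that overlap over a wide range.

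The Egr genes varied widely inside each group. Egr1 (chr18:34859823-34864984, plus strand), the best studied of the family and a relay of growth and stress signals, read 48.1, 520.0, 204, 280.4 and 396 CPM in HFpEF-FoxO1-sh 1 to 5. It read 755, 1002, 173 and 256 CPM in HFpEF-scr 1 to 4, and 116, 33.7, 284, 448 and 853 CPM in Control 1 to 5. The highest and the lowest Control library stood 25.3-fold apart, and the 3 groups overlapped. Its log2 fold change was 0.66 ± 0.73 in HFpEF-scr against Control (SE, adjusted p = 0.637), and -0.92 ± 0.73 in HFpEF-FoxO1-sh against HFpEF-scr (adjusted p = 0.526). Between HFpEF-FoxO1-sh and Control it was -0.26 ± 0.69 (adjusted p = 0.852), so no difference of Egr1 exceeded the spread between libraries.

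Egr2 (chr10:67535475-67542188, plus strand), known for peripheral myelination and for restraint of T cells, had 0.465, 5.00, 1.52, 2.53 and 3.93 CPM in HFpEF-FoxO1-sh 1 to 5. It had 8.09, 14.3, 2.11 and 4.18 CPM in HFpEF-scr 1 to 4, and 1.97, 0.816, 1.57, 3.23 and 6.89 CPM in Control 1 to 5. HFpEF-scr 1 and 2 were above every other library, and HFpEF-scr 3 and 4 lay among the rest. The log2 fold change was 1.31 ± 0.58 between HFpEF-scr and Control (adjusted p = 0.183) and -1.42 ± 0.59 in HFpEF-FoxO1-sh against HFpEF-scr (adjusted p = 0.189). These were the largest differences among the Egr genes, and neither passed the test. Behind them stood few reads, between 7 and 207 expected counts a library. The value for HFpEF-FoxO1-sh over Control was -0.11 ± 0.61 (adjusted p = 0.937).

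Egr3 (chr14:70077203-70082614, plus strand), an Egr factor known from muscle spindles and lymphocytes, had 0.730, 20.1, 4.62, 6.12 and 10.5 CPM in HFpEF-FoxO1-sh 1 to 5. It had 19.5, 19.5, 3.52 and 4.61 CPM in HFpEF-scr 1 to 4, and 2.16, 1.26, 2.41, 7.41 and 24.5 CPM in Control 1 to 5. Each group held at least 1 library above 19 CPM and at least 1 below 4 CPM. The log2 fold change was 0.66 ± 0.79 in HFpEF-scr against Control (adjusted p = 0.663), -0.50 ± 0.79 in HFpEF-FoxO1-sh against HFpEF-scr (adjusted p = 0.782) and 0.17 ± 0.77 in HFpEF-FoxO1-sh against Control (adjusted p = 0.920).

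Of the nuclear receptors, Nr4a3 was the member with a called change in both contrasts that involve HFpEF-scr. Nr4a3 (chr4:48045153-48086447, plus strand, also known as Nor1) is an inducible receptor of muscle and vessel wall. It had 0.863, 1.57, 0.897, 1.48 and 2.13 CPM in HFpEF-FoxO1-sh 1 to 5. In HFpEF-scr 1 to 4 it had 4.29, 6.86, 3.65 and 14.2 CPM, and in Control 1 to 5 it had 4.40, 1.41, 0.653, 1.08 and 2.73 CPM. Every HFpEF-FoxO1-sh library was below every HFpEF-scr library, and Control 1 was the single Control library within the range of HFpEF-scr. Nr4a3 rose 3.36-fold in HFpEF-scr against Control, a log2 fold change of 1.75 ± 0.45 (SE, adjusted p = 0.0298). It fell in HFpEF-FoxO1-sh, where it was 5.19-fold lower than in HFpEF-scr (log2 fold change -2.38 ± 0.49, adjusted p = 0.0171). Relative to Control, HFpEF-FoxO1-sh stood at -0.63 ± 0.52 on the log2 scale (adjusted p = 0.483). The counts were low, from 10 to 201 a library.

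The rise of Nr4a3 in HFpEF-scr did not pass the test in 5 of the 9 fits that left out 1 library. The adjusted p was 0.0656, 0.0671 and 0.0584 without Control 2, 3 and 4, 0.0541 without HFpEF-scr 2 and 0.122 without HFpEF-scr 4, and with only HFpEF-scr and Control fitted it reached 0.0766. The fall in HFpEF-FoxO1-sh was lost in 1 of 9 such fits, with an adjusted p of 0.0528 without HFpEF-FoxO1-sh 1. The 2 contrasts share the HFpEF-scr libraries.

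Nr4a1 (chr15:101254269-101274795, plus strand, also known as Nur77), the most abundant of the 3 receptors and a factor of metabolism and of inflammation, had 6.31, 137, 31.9, 49.35 and 121 CPM in HFpEF-FoxO1-sh 1 to 5. It had 175, 220.5, 49.7 and 162 CPM in HFpEF-scr 1 to 4, and 30.9, 8.68, 39.5, 81.3 and 285 CPM in Control 1 to 5. Control 5 was the highest of the 14 libraries and HFpEF-FoxO1-sh 1 the lowest. The log2 fold change was 0.77 ± 0.79 in HFpEF-scr against Control (adjusted p = 0.602), -1.13 ± 0.79 in HFpEF-FoxO1-sh against HFpEF-scr (adjusted p = 0.459) and -0.36 ± 0.76 in HFpEF-FoxO1-sh against Control (adjusted p = 0.808).

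Nr4a2 (chr2:57106830-57124003, minus strand, also known as Nurr1), known for dopamine neurons, had 1.86, 4.33, 1.66, 2.89 and 2.80 CPM in HFpEF-FoxO1-sh 1 to 5. It had 6.47, 5.47, 2.18 and 3.54 CPM in HFpEF-scr 1 to 4, and 1.83, 2.08, 1.50, 2.76 and 7.16 CPM in Control 1 to 5. The groups overlapped in each comparison. Its log2 fold change was 0.54 ± 0.42 in HFpEF-scr against Control (adjusted p = 0.471), -0.71 ± 0.42 in HFpEF-FoxO1-sh against HFpEF-scr (adjusted p = 0.379) and -0.17 ± 0.42 in HFpEF-FoxO1-sh against Control (adjusted p = 0.839).

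Klf4 (chr4:55527143-55532466, minus strand) had 42.4, 72.0, 61.5, 57.4 and 82.1 CPM in HFpEF-FoxO1-sh 1 to 5. It had 127, 136, 87.3 and 103 CPM in HFpEF-scr 1 to 4, and 65.5, 33.5, 43.3, 53.4 and 93.7 CPM in Control 1 to 5. All 5 HFpEF-FoxO1-sh libraries lay below all 4 HFpEF-scr libraries, and Control 5 was above HFpEF-scr 3. Klf4 rose 1.96-fold in HFpEF-scr against Control (log2 fold change 0.97 ± 0.24, adjusted p = 0.0225). Between HFpEF-FoxO1-sh and HFpEF-scr it differed by -0.85 ± 0.24 on the log2 scale, and the adjusted p of 0.0577 missed the threshold. Between HFpEF-FoxO1-sh and Control the difference was 0.12 ± 0.23 (adjusted p = 0.784). Without Control 3 or without HFpEF-scr 2 the adjusted p of the rise was 0.0612 and 0.0632. The comparison that missed was called without HFpEF-FoxO1-sh 5 (adjusted p = 0.0481) and with only those 2 groups fitted (adjusted p = 0.0268).

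The 6 endothelial markers, of cells in which Klf4 is known to respond to flow, summed to between 909.9 and 963 CPM in HFpEF-FoxO1-sh, between 930.0 and 1352 CPM in HFpEF-scr and between 982 and 1086 CPM in Control. None was at 0, and 1 of 6, Pecam1, rose in HFpEF-scr against Control and fell in HFpEF-FoxO1-sh against HFpEF-scr. In HFpEF-FoxO1-sh against Control 1 of 6 fell, where 6.28% of all genes fell, and 5 of 6 were below 0. The sum of 1352 CPM belonged to HFpEF-scr 1, where Kdr read 539 CPM, against 265 to 331 CPM in the other HFpEF-scr libraries. The 7 pericyte and smooth muscle markers summed to between 1093 and 1230.1 CPM, 1181 and 1267 CPM, and 1094 and 1250.0 CPM in HFpEF-FoxO1-sh, HFpEF-scr and Control, and 3 of them rose in HFpEF-scr against Control (Rgs5, Acta2 and Tagln). Their part in the result for Klf4 was not tested.

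Ier2 (chr8:84661331-84662852, minus strand) had 12.4, 74.4, 34.1, 45.5 and 62.9 CPM in HFpEF-FoxO1-sh 1 to 5. It had 93.9, 108, 28.9 and 40.2 CPM in HFpEF-scr 1 to 4, and 29.6, 14.3, 44.6, 61.1 and 107 CPM in Control 1 to 5. The 3 groups overlapped, although HFpEF-scr 1 and 2 were above every HFpEF-FoxO1-sh library. Its log2 fold change was 0.40 ± 0.51 in HFpEF-scr against Control (adjusted p = 0.686), -0.56 ± 0.52 in HFpEF-FoxO1-sh against HFpEF-scr (adjusted p = 0.590) and -0.16 ± 0.49 in HFpEF-FoxO1-sh against Control (adjusted p = 0.874).

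Ier3 (chr17:35821684-35822923, plus strand, also known as IEX-1) was higher in both HFpEF groups than in Control. It had 34.1, 35.4, 34.1, 28.5 and 32.7 CPM in HFpEF-FoxO1-sh 1 to 5. It had 30.0, 22.4, 33.9 and 35.2 CPM in HFpEF-scr 1 to 4, and 19.9, 19.2, 20.6, 20.7 and 22.4 CPM in Control 1 to 5. No HFpEF library reached down to the Control range, although HFpEF-scr 2, at 22.44 CPM, stood next to Control 5, at 22.36 CPM. Ier3 rose 1.48-fold in HFpEF-scr against Control (log2 fold change 0.56 ± 0.10, adjusted p = 0.00493) and 1.60-fold in HFpEF-FoxO1-sh against Control (0.68 ± 0.10, adjusted p = 3.50e-04). Between the 2 HFpEF groups the difference was 0.12 ± 0.10 (adjusted p = 0.569). Both rises passed the test whichever library was left out, with adjusted p up to 0.0199 for HFpEF-scr and up to 0.00156 for HFpEF-FoxO1-sh. The 2 contrasts share the Control libraries.

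Dusp1 (chr17:26505590-26562128, minus strand) had 68.2, 269, 145, 205 and 298 CPM in HFpEF-FoxO1-sh 1 to 5. It had 372, 448, 149 and 249.6 CPM in HFpEF-scr 1 to 4, and 129, 55.0, 165, 196 and 398 CPM in Control 1 to 5. HFpEF-scr 2, Control 5 and HFpEF-scr 1 were the 3 highest libraries. The log2 fold change was 0.69 ± 0.46 in HFpEF-scr against Control (adjusted p = 0.394), -0.63 ± 0.46 in HFpEF-FoxO1-sh against HFpEF-scr (adjusted p = 0.489) and 0.06 ± 0.44 in HFpEF-FoxO1-sh against Control (adjusted p = 0.949). Of its annotated exon bases 0.3% lie in an exon of Ergic1 on the other strand, and the other 9 genes share no exon base.

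The spread inside groups was wide for most of the 10 genes. The SD of log2 CPM within groups was 1.63 for Nr4a1, 1.59 for Egr3, 1.50 for Egr1, 1.16 for Egr2 and 1.02 for Ier2, where the median over all genes tested was 0.14. Each of these 5 exceeded the SD of at least 99.3% of genes. Dusp1, at 0.89, Nr4a3, at 0.81, and Nr4a2, at 0.70, exceeded the SD of at least 98.5% of genes. Klf4, at 0.43, exceeded 92.8%. Ier3, at 0.18, exceeded 63.5%, and it was the gene with the smallest difference called. Among the 487 genes within 0.5 log2 units of the level of Egr1, 99.8% had a smaller SD than Egr1, and among the 2449 genes as near to the level of Ier3, 87.8% had a smaller SD than Ier3.

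The same libraries were often highest or lowest of their group. Control 5 was the highest of its group for 9 of the 10 genes and Control 2 the lowest for 8. HFpEF-scr 2 was the highest of its group for 7 genes, and HFpEF-scr 3 was the lowest for 9. HFpEF-FoxO1-sh 2 was the highest of its group for 7 genes, and HFpEF-FoxO1-sh 1 the lowest for 8. Nr4a3 departed from this order, with its highest values in HFpEF-scr 4 and, among Control libraries, in Control 1. Ier3 departed too, being lowest in HFpEF-scr 2 and highest in HFpEF-scr 4 within HFpEF-scr, and lowest in HFpEF-FoxO1-sh 4 within its group. Nr4a2 was highest in HFpEF-scr 1, and lowest in HFpEF-FoxO1-sh 3 and in Control 3 within those groups.

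**Figure D4:**
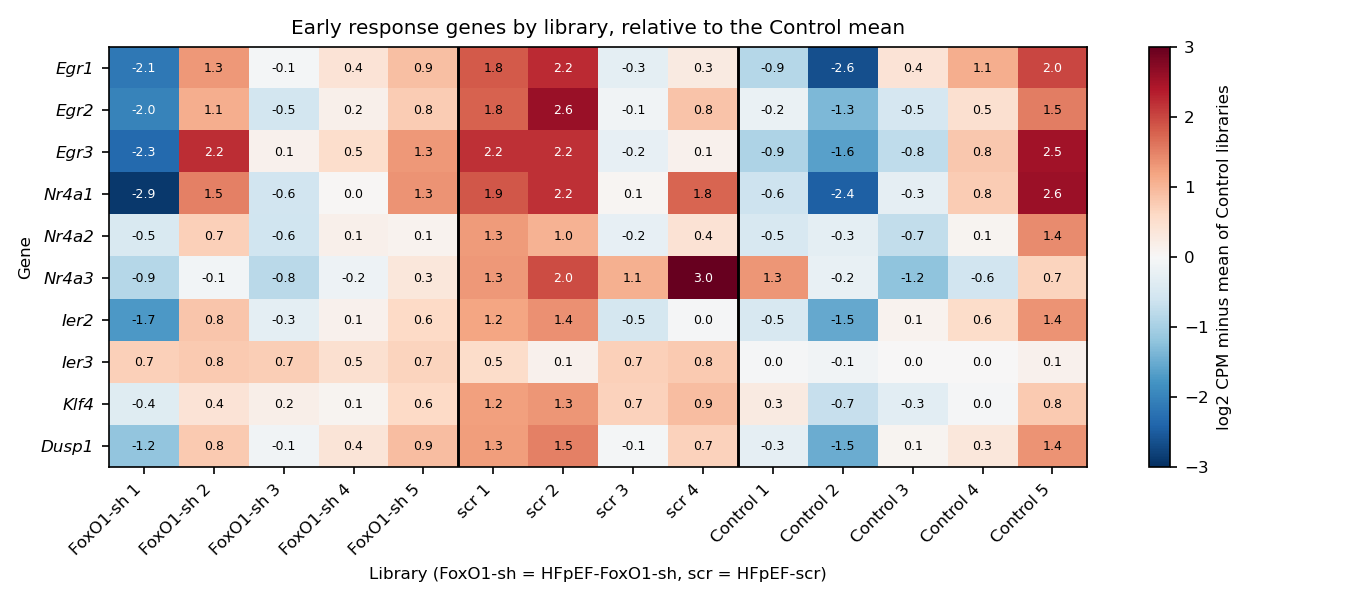
log2 CPM of each gene in every library minus the mean of the Control libraries, on a colour scale that ends at 3 and -3, with groups divided by black lines. HFpEF-scr 2 is among the 3 highest libraries for 9 of the 10 genes. The row of Ier3 is above 0 in every HFpEF library, though faintly in HFpEF-scr 2, at 0.13, next to 0.12 in Control 5.

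With group means removed, Pearson and Spearman correlations were computed over the 14 libraries for all 45 pairs of the 10 genes, with p from 100000 permutations within groups and Benjamini-Hochberg adjustment over the 45 pairs. Egr1 and Ier2 gave r = 0.99 (permutation p = 1e-05, the smallest these permutations can give, adjusted p = 3e-05) and rho = 0.97 (permutation p = 1e-05, adjusted p = 5.62e-05), and r was 0.99 without the 2 libraries farthest from the median of Egr1. In every pair the 2 libraries left out were the farthest for 1 gene only, the earlier in the order of genes given at the start. Nr4a1 and Dusp1 gave r = 0.97 (permutation p = 1e-05, adjusted p = 3e-05) and rho = 0.95 (permutation p = 1e-05, adjusted p = 5.62e-05), with r = 0.95 without 2 libraries. Over the 28 pairs that hold neither Ier3 nor Nr4a3 r ran between 0.71 and 0.99 with a median of 0.93, and between 0.54 and 0.99 without the 2 farthest libraries. This division was chosen after the values were seen. All 28 had an adjusted permutation p of r under 0.05, and 27 of them also of rho.

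None of the 9 pairs with Nr4a3 passed, with r between 0.03 and 0.55, and the strongest was Nr4a3 with Klf4 (r = 0.55, permutation p = 0.0914, adjusted p = 0.142, rho = 0.58, permutation p = 0.0627, adjusted p = 0.0972). Without the 2 farthest libraries r of these 9 pairs ran between -0.20 and 0.69, with 0.69 for Nr4a3 and Klf4, 0.56 in place of 0.31 for Nr4a3 and Dusp1, and 0.51 in place of 0.19 for Nr4a3 and Ier2. With Ier2, Ier3, Klf4 and Dusp1 the libraries left out were the farthest for Nr4a3. With the Egr genes, Nr4a1 and Nr4a2 they were the farthest for the partner, so values of the former pairs cannot be compared with those of the latter. None of the 9 pairs with Ier3 passed either, with r between -0.27 and 0.03, and between -0.41 and 0.22 without the 2 farthest libraries. Those were the farthest for Ier3 only in its pairs with Klf4 and Dusp1. The permutations keep the groups apart but the pairs share libraries and scaling, and no batch is given in the labels within which they could be repeated. The correlation with the mean of the other 9 genes was highest for Nr4a1, at 0.98, followed by Dusp1 at 0.95, and it was 0.34 for Nr4a3 and -0.12 for Ier3. These last values are descriptions over the same 14 libraries.

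Outside the 10, 11920 genes averaged 2 CPM or more, and the 8 whose profile within groups was most like the mean of the 10 genes over the 14 libraries were Klf2, Sik1, Btg2, Atf3, Actg1, Slc25a25, Apold1 and 8430408G22Rik, with r between 0.937 and 0.980. In all, 23 genes had an r above 0.9 and none had one below -0.9. Klf2, a flow-responsive factor of endothelium, came first (r = 0.980, rho = 0.952). It ran between 47.1 CPM in Control 2 and 219 CPM in HFpEF-scr 2. Atf3, a stress-induced partner of AP-1, ran between 1.63 CPM in Control 2 and 82.1 CPM in HFpEF-scr 2. Apold1, an early response gene of endothelium, ran between 10.3 CPM in HFpEF-FoxO1-sh 1 and 249.98 CPM in Control 5, and Actg1, which encodes cytoplasmic actin, between 247 CPM in HFpEF-FoxO1-sh 1 and 517 CPM in Control 5. Ranking by likeness selects such values, so no test is given.

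Counts of called genes in the lists and markers below stand against 7.37% of all genes called in HFpEF-scr against Control. In HFpEF-FoxO1-sh the share was 3.58% against HFpEF-scr and 13.0% against Control. The AP-1 list held 8 genes, namely Atf3 and the Fos and Jun genes, whose products pair into a factor induced alongside the Egr genes, and 7 of the 8 were tested. In HFpEF-scr against Control, 2 rose, none fell, and the median log2 fold change was 0.98. Fosb rose by 4.95 ± 0.96 (adjusted p = 0.00670) with 235, 468, 2.18 and 45.7 CPM in HFpEF-scr 1 to 4, against 13.0, 0.594, 1.57, 3.23 and 10.2 CPM in Control 1 to 5. HFpEF-scr 3 lay inside the Control range. Jund rose by 0.63 ± 0.17 (adjusted p = 0.0359), and for Jund too HFpEF-scr 3 lay inside the Control range. None of the AP-1 genes had libraries free of overlap in this comparison. In HFpEF-FoxO1-sh against HFpEF-scr, 3 of 7 fell and the median was -1.16, with log2 fold changes of -3.05 ± 0.81 for Fos (adjusted p = 0.0479), -5.59 ± 1.03 for Fosb (adjusted p = 0.00973) and -0.67 ± 0.17 for Jund (adjusted p = 0.0427). Fos had 3.45, 44.9, 13.6, 21.6 and 38.1 CPM in HFpEF-FoxO1-sh 1 to 5 and 273, 416, 16.8 and 100.4 CPM in HFpEF-scr 1 to 4. None of the 7 was called in HFpEF-FoxO1-sh against Control by edgeR, none had an unadjusted p under 0.05, and the smallest p belonged to Atf3 (0.82 ± 0.85, adjusted p = 0.581) and Fosb (-0.64 ± 1.19, adjusted p = 0.784).

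Of 31 other early response genes tested, 5 rose and 1 fell in HFpEF-scr against Control, with a median log2 fold change of 0.53 and 28 above 0. Socs3, a brake on cytokine signalling, rose by 2.31 ± 0.48 (adjusted p = 0.00940), Myc, a transcription factor of growth, by 1.06 ± 0.24 (adjusted p = 0.0160), and Cebpd, an inflammatory factor, by 1.03 ± 0.27 (adjusted p = 0.0298). Rhob, a small GTPase, rose by 0.53 ± 0.14 (adjusted p = 0.0333) and Zfp36l1, which destabilises messages, by 0.29 ± 0.07 (adjusted p = 0.0301). Phlda1 fell by 0.76 ± 0.14 on the log2 scale (adjusted p = 0.00506). HFpEF-scr 3 lay inside the Control range for Myc, Cebpd and Rhob, and HFpEF-scr 4 did so for Zfp36l1. Of the 31 genes 1, Phlda1, had libraries free of overlap, against 8.93% of all genes. In HFpEF-FoxO1-sh against HFpEF-scr, 2 fell, Myc (log2 fold change -1.03 ± 0.24, adjusted p = 0.0309) and Socs3 (-2.64 ± 0.49, adjusted p = 0.0105), and the median was -0.42. Socs3 read 28.9, 66.4, 4.80 and 16.2 CPM in HFpEF-scr 1 to 4, against 3.94 to 5.60 CPM in HFpEF-FoxO1-sh and 3.34 to 7.45 CPM in Control, so that HFpEF-scr 3 lay inside both ranges. In HFpEF-FoxO1-sh against Control, 1 fell, Phlda1 (-1.18 ± 0.13, adjusted p = 3.73e-05), and the median was 0.07.

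Of the 7 other MAP kinase phosphatases tested, relatives of Dusp1, Dusp16 rose by 0.34 ± 0.08 (adjusted p = 0.0139) and Dusp7 fell, at -0.44 ± 0.08 (adjusted p = 0.00512), in HFpEF-scr against Control. In HFpEF-FoxO1-sh against HFpEF-scr, 1 of 7 fell, Dusp5 (-0.67 ± 0.17, adjusted p = 0.0366). In HFpEF-FoxO1-sh against Control, Dusp16 rose by 0.27 ± 0.07 (adjusted p = 0.0197), while Dusp5 (-0.61 ± 0.16, adjusted p = 0.0172) and Dusp7 (-0.28 ± 0.08, adjusted p = 0.0266) fell. Median log2 fold changes of the 7 were 0.30, -0.27 and 0.03 in the same order of comparisons.

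Factors and kinases that act upstream of early response genes had medians near 0. Of 23 tested, 1 rose in HFpEF-scr against Control, Atf1, a relative of CREB, by 0.25 ± 0.06 (adjusted p = 0.0157), with a median log2 fold change of 0.02. In HFpEF-FoxO1-sh against HFpEF-scr, 1 fell, Srf (-0.35 ± 0.09, adjusted p = 0.0479), with 113 to 142 CPM in HFpEF-FoxO1-sh and 145 to 185 CPM in HFpEF-scr, and the median was -0.04. In HFpEF-FoxO1-sh against Control, Mrtfb, a coactivator of SRF listed as Mkl2, rose by 0.28 ± 0.06 (adjusted p = 0.00579) and Atf1 by 0.21 ± 0.05 (adjusted p = 0.0158), with a median of -0.05. Message levels say nothing of phosphorylation, which was not measured.

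The 5 partners and corepressors, namely Nab1 and Nab2, which bind and restrain Egr proteins, and the retinoid receptors Rxra, Rxrb and Rxrg, which pair with Nr4a1 and Nr4a2, gave no called change in any comparison by edgeR. An unadjusted p under 0.05 was reached by 0, 0 and 1 of them, and the medians were -0.01, -0.03 and -0.01. The smallest p in HFpEF-scr against Control were those of Rxra (0.10 ± 0.05, adjusted p = 0.247) and Rxrg (0.04 ± 0.06, adjusted p = 0.695). In HFpEF-FoxO1-sh against HFpEF-scr they were those of Nab1 (-0.08 ± 0.06, adjusted p = 0.473) and Rxrg (-0.03 ± 0.06, adjusted p = 0.798). In HFpEF-FoxO1-sh against Control they were those of Rxra (0.13 ± 0.05, adjusted p = 0.0930) and Nab1 (-0.09 ± 0.06, adjusted p = 0.333).

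**Figure D5:**
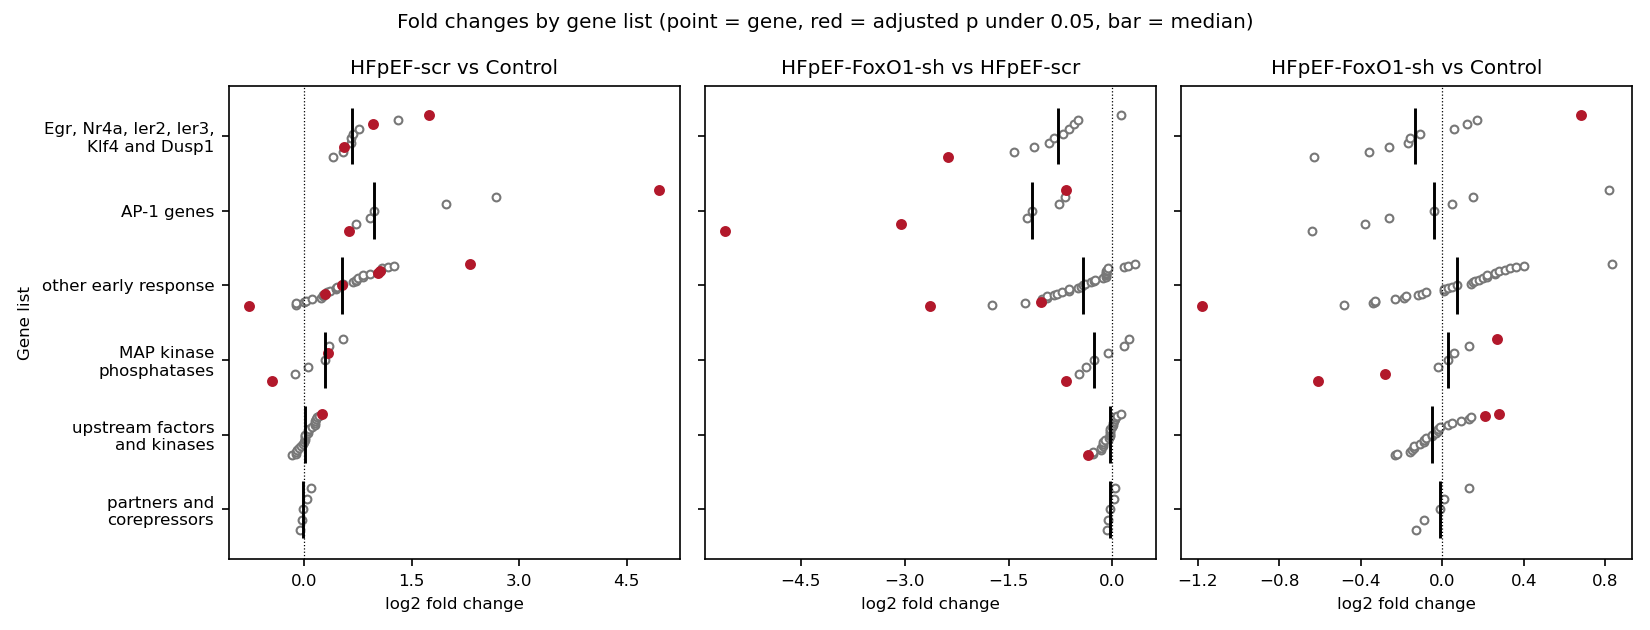
log2 fold changes of the 10 genes and of 5 related lists in the 3 comparisons, each point being a gene, red where the adjusted p is under 0.05, with bars at the medians. The medians of the 10 genes, of AP-1 genes and of other early response genes are 0.68, 0.98 and 0.53 in the left panel and -0.78, -1.16 and -0.42 in the middle panel, and those of upstream factors and of partners lie near 0.

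Genes that answer glucocorticoids and heat moved with some of these results. Of 8 glucocorticoid response genes 3 rose in HFpEF-scr against Control (Tsc22d3, Cdkn1a and Ddit4), with a median log2 fold change of 0.78, and 1 fell in HFpEF-FoxO1-sh against HFpEF-scr (Cdkn1a), with a median of -0.38. Of the same 8, 1 rose in HFpEF-FoxO1-sh against Control (Tsc22d3), 4 had an unadjusted p under 0.05, 6 were above 0, and the median was 0.42. The sums of the 8 ran between 389 and 709 CPM in HFpEF-FoxO1-sh, between 408 and 822 CPM in HFpEF-scr and between 293 and 483 CPM in Control. They were lowest in HFpEF-FoxO1-sh 1, HFpEF-scr 3 and Control 2, as for most of the 10 genes. In Control the highest, Control 5, was also shared with most of the 10. HFpEF-FoxO1-sh 5 and HFpEF-scr 4 had the highest sums, whereas HFpEF-FoxO1-sh 2 and HFpEF-scr 2 were highest for 7 of the 10 genes each. Of 6 heat shock genes 1, Hspa1a, rose in HFpEF-scr against Control and fell in HFpEF-FoxO1-sh against HFpEF-scr. All 6 were above 0 in the former comparison, with a median of 0.35, and below 0 in the latter, with a median of -0.40. In the latter 5 of 6 had an unadjusted p under 0.05, against 19.7% of all genes. Libraries did not overlap there for 4 of 6, against 8.34% of all genes. None of the 6 was called by edgeR in HFpEF-FoxO1-sh against Control, where 1 had an unadjusted p under 0.05. The sums ran between 349 and 413 CPM in HFpEF-FoxO1-sh, 488 and 505 CPM in HFpEF-scr, and 360.2 and 582 CPM in Control. Their part in the results for the 10 genes was not tested.

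Markers of other cells moved with some comparisons too. Macrophage markers summed to between 61.6 and 83.5 CPM in HFpEF-FoxO1-sh, between 85.3 and 107 CPM in HFpEF-scr and between 91.7 and 127 CPM in Control. In HFpEF-FoxO1-sh 2 of 6 fell against HFpEF-scr and 5 of 6 against Control, where 2.26% and 6.28% of all genes fell. Fibroblast markers summed to between 575 and 726 CPM, 698 and 796 CPM, and 633 and 728 CPM in HFpEF-FoxO1-sh, HFpEF-scr and Control. Of the 6, 2 were higher in HFpEF-scr than in Control and 2 lower in HFpEF-FoxO1-sh than in either. The 2 that fell against Control were the collagens Col1a1 and Col1a2. The other 4 were above 0 in that comparison, and the median log2 fold change of the 6 was 0.08. Of 6 cardiomyocyte markers 2 fell in HFpEF-scr against Control, Myh6 (log2 fold change -0.17 ± 0.05, adjusted p = 0.0378) and Myl2 (-0.18 ± 0.05, adjusted p = 0.0331). Red cell markers summed to 6044 CPM in HFpEF-scr 1, against 539 to 1111 CPM in the other HFpEF-scr libraries, 723 to 1698 CPM in HFpEF-FoxO1-sh and 1033 to 1482 CPM in Control. Without HFpEF-scr 1 the count of 3 genes that rose in HFpEF-scr and the count of 1 that fell in HFpEF-FoxO1-sh stood as before. Sums stayed at or under 13.3 CPM for neutrophil, 4.09 CPM for lymphocyte, 1.56 CPM for adipocyte and 0.762 CPM for skeletal muscle markers, and all 4 adipocyte markers were at 0 in HFpEF-scr 1, 3 and 4. Atrial markers summed to between 43.0 and 70.8 CPM in HFpEF-FoxO1-sh, 46.2 and 150.1 CPM in HFpEF-scr, and 95.9 and 188 CPM in Control. Nearly all of that sum was Nppa, with means of 51.7, 80.0 and 133 CPM in the same order, and Nppa fell in HFpEF-FoxO1-sh against Control. Myl4 averaged 1.87, 1.80 and 1.94 CPM and Myl7 0.624, 0.204 and 0.291 CPM, and Sln was near 0. The part of these cells in the results for the 10 genes was not tested.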

How the data were processed

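Poly(A) messenger RNA of left ventricles was made into libraries with a Swift Biosciences kit, per the labels' protocols. The authors deposited expected counts per gene, of which 15.1% to 16.4% per library were not whole numbers. Bowtie2 2.1.0, RSEM 1.2.15 and the genome mm10 are named per the submitters' processing notes; their roles, the gene annotation, filters, strand and read layout are not given in the sources used here. Each column's number is the description of 1 sample, by which it was assigned.

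Expected counts were rounded and tested with edgeR 4.0.16 (R 4.3.3): filterByExpr left 13588 genes, TMM scaled libraries, and group means were fitted by quasi-likelihood over all 14 libraries together. Each comparison was a contrast with a two-sided F-test, Benjamini-Hochberg adjusted over all genes tested and called under 0.05. The SE is the log2 fold change divided by the square root of F. log2 CPM used a prior count of 2. The test scripts were tested on simulated data.

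The 10 genes and all lists were chosen with earlier results of these data known. Named list genes were up to 6 called genes with the smallest p per list and comparison, or 2 where none was called; genes named for likeness were the 8 with the highest r after removal of group means. Of 165 listed symbols 5 were found under an older symbol and 1 was not found. GENCODE vM21 gave GRCm38 positions and exon lengths, which may differ from the authors' annotation; promoter letters are from RefSeq on GRCm38.p6. Alternatives were DESeq2 1.42.0, DESeq2 size factors, 2 other filters, limma 3.58.1 voom with and without quality weights, fits of the 2 groups alone, a replicate block, and fits without each library in turn. No same-group pair of libraries was a duplicate (lowest chi-square per degree of freedom 4.35). Python 3.11.15 and matplotlib 3.10.9 made the figures.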

Additional observations from a re-analysis of the deposited data

Results flagged for a closer look

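Of 30 groups of values (10 genes in 3 groups of libraries) 3 held a library far from the others, all in Control 5. Nr4a1 had 285 CPM there, against 8.68 to 81.3 CPM in Control 1 to 4. Egr3 had 24.5 CPM, against 1.26 to 7.41 CPM. Nr4a2 had 7.16 CPM, against 1.50 to 2.76 CPM. The flag was set on CPM, and its chance rate of 1 in 20 groups holds for normally distributed values, so that rate cannot be applied here. As log2 CPM minus the Control mean, Control 5 read 2.57 for Nr4a1, against -2.44 to 0.77 in Control 1 to 4. It read 2.51 for Egr3, against -1.63 to 0.80, and 1.42 for Nr4a2, against -0.74 to 0.09. The 3 genes move together between libraries, so these are not 3 separate events. Without Control 5 the log2 fold change of HFpEF-scr against Control was 1.92 for Nr4a1, 1.84 for Egr3 and 1.11 for Nr4a2, against 0.77, 0.66 and 0.54 with it, and none of the 3 was called in either fit.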

How the results depend on the processing

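Ier3 kept its direction and its calls against Control under every alternative run. Genes called in HFpEF-FoxO1-sh against HFpEF-scr were 857 with DESeq2 in place of 486, and genes called in HFpEF-scr against Control were 504 in a fit of the 2 groups alone in place of 1001. The 10 genes gave 2 calls in HFpEF-FoxO1-sh against HFpEF-scr in a fit of the 2 groups alone, Klf4 joining Nr4a3. Klf4 and Nr4a3 kept their signs in the comparisons where they were called, under every alternative. With limma voom Egr1 and Nr4a2 turned to 0.08 and 0.01 in HFpEF-FoxO1-sh against Control, adjusted p 0.964 and 0.989. The cause was not tested.

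Without 1 library, the 10 genes gave 1 to 3 calls in HFpEF-scr against Control, 0 to 2 in HFpEF-FoxO1-sh against HFpEF-scr and 1 in every such fit of HFpEF-FoxO1-sh against Control. Other early response genes called ran from 2 to 10, from 1 to 6 and stayed at 1 in the same comparisons. Genes called ran from 537 to 1106, from 162 to 668 and from 1228 to 1683. In HFpEF-FoxO1-sh against Control log2 fold changes that passed no test changed sign: Egr1 ran from -0.58 to 0.39, Egr2 from -0.44 to 0.48, Egr3 from -0.44 to 1.34, Nr4a1 from -0.77 to 0.79, Nr4a2 from -0.40 to 0.41, Ier2 from -0.40 to 0.29, Klf4 from -0.02 to 0.36 and Dusp1 from -0.17 to 0.53.

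Replicate numbers did not visibly pair the libraries over all genes tested: in 13 same-numbered pairs the deviations correlated between -0.19 and 0.11. A correlation over all genes cannot show a pairing confined to a few genes, such as the 10 here. With the replicate block the 10 genes gave 2 calls in HFpEF-FoxO1-sh against HFpEF-scr (Klf4 at -0.99, adjusted p = 0.0298), with 291 genes called, and the other early response genes called were 13 in place of 6 in HFpEF-scr against Control and 6 in place of 2 in HFpEF-FoxO1-sh against HFpEF-scr. The median of the 10 genes in HFpEF-scr against Control was 1.15 with the block and 1.02 with limma voom, in place of 0.68. A filter of at least 10 counts in every library removed Egr2. Depth is thinnest for Egr2 and Nr4a3, at 7 and 10 counts in their lowest libraries.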
